A study of Anopheles gambiae with 5 samples.

Results

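Acetylation of lysine 27 of histone H3 (H3K27ac) marks active promoters and, away from promoters, active enhancers. The regions described here are the H3K27ac peaks of the Anopheles gambiae midgut that lay outside every transcribed locus assembled in the study, which makes them candidate distal elements. A peak was taken when it shared no base with any locus of the merged transcript set, measured from the lowest exon start to the highest exon end, and no base with the 200 bp on either side of a locus start. Of 6639 H3K27ac peaks, 373 (5.62%, 95% Wilson interval 5.09 to 6.2%) met this rule. When unspliced unannotated loci were left out of the rule, 667 peaks lay outside the other loci. The 373 peaks covered 715285 bp, or 4.08% of all the sequence under H3K27ac peaks.

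Enhancers are stretches of DNA that bind transcription factors and act on promoters at a distance. In Drosophila and in mammals, acetylation of H3K27 at such elements is laid down by the CBP/p300 acetyltransferases and tends to accompany activity of the genes nearby. The same lysine can instead carry 3 methyl groups (H3K27me3), the mark of Polycomb repression, and a single histone tail cannot carry both. H3K27ac alone does not tell an enhancer from a promoter of an unassembled transcript, since both carry it.

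The midguts came from adult females of the isogenic Kisumu strain aged 6 to 8 days and kept on sugar solution, with no treatment. Chromatin from pooled midguts gave 1 H3K27ac library, 1 H3K27me3 library and 1 input library, and RNA from pooled midguts and from pooled salivary glands gave 1 library each. All cell types of the midgut are mixed in the pools, and the transcript set joins both tissues, so that a locus may rest on salivary gland RNA alone. With 1 library per mark there is no replicate and no test between animals. Intervals below are at the 95% level, from order statistics for medians and by the Wilson method for shares, and they cover counting error only. They are too narrow where peaks are neighbours, because the 373 peaks lay in 272 of the 18457 stretches between loci. The depth of the libraries was not read from the peak lists, and no transcript abundance was used, so the tissue could not be checked against its marker genes. Positions are those of the AgamP4 assembly, counted from 1.

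The 373 peaks were shorter and scored lower than H3K27ac peaks at loci. The rule itself favours short peaks, because a longer peak is more likely to touch a locus, and longer peaks score higher. How much of the differences in length and score comes from the rule was not tested. The score is that of the peak caller MACS, 10 times the negative log10 of the p-value of the ChIP reads against the input, and a higher score therefore means a lower p-value and not a measured level of acetylation. Scores ran from 50.22 to 2551.28 with a median of 122.86 (interval 109.74 to 149.43). For comparison, the remaining peaks were split into 3 classes: 3344 that touched the start of a locus holding an annotated transcript, 2518 that touched such a locus elsewhere, and 404 that touched unannotated loci only. Their median scores were 316 (interval 296 to 335), 202 (interval 188 to 215) and 199.21 (interval 171 to 227). Scores under 100 were found in 150 of the 373 peaks (40.2%, interval 35.4 to 45.3%), against 22.8% of all H3K27ac peaks. Scores of 1000 or more were found in 23 of them (6.17%, interval 4.14 to 9.08%), against 14.6% of all peaks.

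Their median length was 1525 bp (interval 1417 to 1627 bp), with the shortest peak at 364 bp and the longest at 18099 bp. Peaks at annotated starts had a median length of 2087.5 bp (interval 2034 to 2143 bp), peaks elsewhere at annotated loci 2117.5 bp (interval 2049 to 2201 bp) and peaks at unannotated loci 1880.5 bp (interval 1719 to 2030 bp). Only 13 of the peaks outside loci reached 5000 bp (3.49%), while 10.6% of the peaks at annotated starts did.

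**Figure D1:**
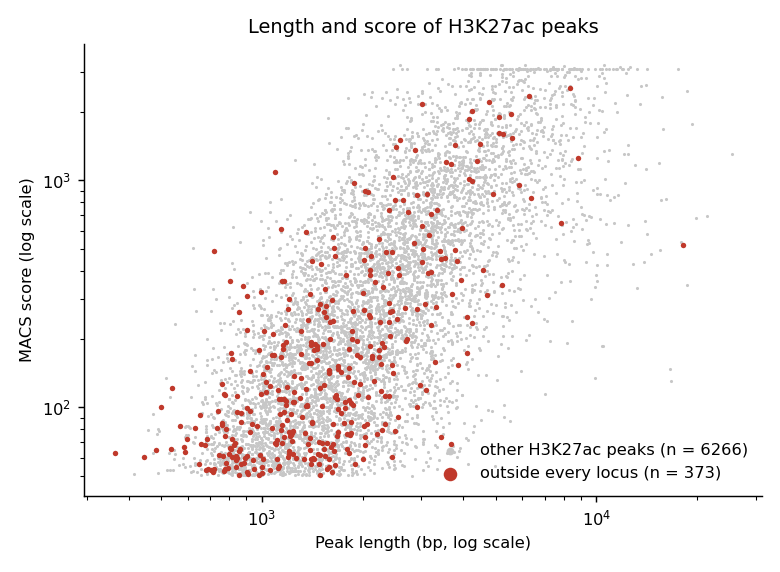
Length of each H3K27ac peak in bp (horizontal, log scale) against its MACS score (vertical, log scale), with the 373 peaks outside every locus in red and the 6266 other peaks in grey. The red points lie within the grey cloud and are most crowded at its lower left, with a median length of 1525 bp and a median score of 122.86.

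Since longer peaks score higher, scores were also set side by side within bands of length. Among peaks of 1000 to 2000 bp, the 169 peaks outside loci had a median score of 107.74 (interval 98.05 to 121.61). This was close to the 110.56 (interval 104.21 to 119.67) of the 925 peaks elsewhere at annotated loci, and below the 180.9 (interval 170.2 to 187.0) of the 1274 peaks at annotated starts. The same order was seen at 2000 to 3000 bp, where the medians were 247 (interval 185 to 319), 260 (interval 239 to 279) and 407 (interval 377 to 428). Under 1000 bp, where 81 of the peaks outside loci fell, the medians of these 3 classes lay close together, at 68.31 (interval 63.43 to 81.03), 73.69 (interval 68.18 to 78.85) and 76.61 (interval 72.92 to 82.04). Peaks at unannotated loci only had medians of 95.03 (interval 78.04 to 130.98) under 1000 bp, 142.63 (interval 112.01 to 170.07) at 1000 to 2000 bp and 252 (interval 204 to 291) at 2000 to 3000 bp. At a given length from 1000 to 3000 bp, peaks outside loci thus scored close to peaks elsewhere at annotated loci and below peaks at annotated starts. At 3000 bp or more, a band with no upper limit, the 55 peaks outside loci had a median of 617.56 (interval 441.45 to 948.54). The medians were 689 (interval 635 to 740) elsewhere at annotated loci and 992 (interval 944 to 1058) at annotated starts. At unannotated loci only, it was 737 (interval 622 to 905).

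The share of H3K27ac peaks outside every locus differed between chromosomes. It was highest among the placed arms on 3L, with 88 of 1113 peaks (7.91%, interval 6.46 to 9.64%), and lowest on 2L, with 58 of 1544 (3.76%, interval 2.92 to 4.83%). The other arms lay between, with 98 of 1866 peaks on 2R (5.25%), 68 of 1375 on 3R (4.95%) and 38 of 658 on X (5.78%). The unplaced sequence UNKN had only 83 peaks in all, but 23 of these were outside every locus (27.7%, interval 19.2 to 38.2%). Measured against the sequence between loci, the density was 4.33 peaks per Mb on 3L, 3.94 on 2R, 3.05 on X, 3.04 on 2L and 2.74 on 3R, and it was 0.595 per Mb on UNKN. Median scores ran from 82.32 (interval 65.57 to 98.81) on UNKN and 100.46 (interval 77.36 to 125.2) on 3R to 208.44 (interval 137.93 to 411.35) on X.

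The peaks were unevenly spread along the arms. Of the 151 windows of 1 Mb that held any, 67 held a single one, and 17 windows with 5 or more held 141 of the 373 peaks. The 4 fullest windows were all on 3L, and the window from 13 to 14 Mb held the most, 18 peaks in 10 separate stretches. The window from 29 to 30 Mb followed with 16 of its 21 H3K27ac peaks outside loci. The windows from 21 to 22 Mb and from 28 to 29 Mb held 11 and 10. These windows differed in score, with a median of 441.45 at 21 Mb and 106.19 at 28 Mb. They also differed in H3K27me3, which lay within 2000 bp of 7 of the 10 peaks at 28 Mb and of none of the 11 at 21 Mb.

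Most of the peaks lay a few kilobases from the nearest locus. The median distance from the edge of a peak to the nearest locus was 2196 bp (interval 1842 to 2688 bp), with quartiles of 725 and 5730 bp. It was 3889 bp for the 667 peaks left when unspliced unannotated loci were not counted. Distances over 5000 bp were found for 107 peaks (28.7%, interval 24.3 to 33.5%), and 25 peaks lay more than 20000 bp from any locus. The nearest locus was annotated for 226 peaks (60.6%, interval 55.5 to 65.4%) and unannotated for 147. Of all 26835 loci, 12882 were annotated. From annotated loci alone the median distance was 4101 bp (interval 3445 to 5690 bp), and 64 peaks lay more than 20000 bp away. At the limits of the rule, the members nearest to a locus were 3 peaks on 2R at 20, 50 and 56 bp, with scores of 161.17, 107.06 and 401.69. The 3 excluded peaks that came closest to passing shared 4, 11 and 11 bp with a locus or the 200 bp around a start, and scored 185.5, 159.99 and 212.43.

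Scores were alike at short and middle distances and lower far from loci. The median score was 137.93 (interval 93.49 to 200.13) for the 61 peaks under 500 bp from a locus, 151.38 (interval 116.49 to 190.94) for the 116 peaks at 500 to 2000 bp and 127.06 (interval 101.59 to 178.55) for the 89 peaks at 2000 to 5000 bp. It was 112.56 (interval 86.52 to 195.8) for the 82 peaks at 5000 to 20000 bp and 66.83 (interval 59.25 to 99.88) for the 25 farthest. One of those 25, described below, nevertheless scored 1891.48.

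Of the 5 peaks farthest from any locus, 4 were under 1000 bp long and scored under 100. The farthest was 482 bp long with a score of 64.69, on UNKN at 39550874 to 39551355, 87560 bp from the nearest locus. The next, also on UNKN, at 35766231 to 35767541, had a score of 217.38 and lay 81756 bp from a locus. A peak on 2R at 45167201 to 45168184 lay 49423 bp away and scored 50.43. The last pair were peaks on 3L at 9504548 to 9505316 and at 9597463 to 9598175, in one locus-free stretch of 184759 bp, with scores of 52.38 and 51.6. Scores of the last 3 thus lay close to the lowest score in the H3K27ac list, 50.02.

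The peaks showed no visible preference for locus starts over locus ends. The nearest locus turned its start toward the peak in 195 cases (52.3%, interval 47.2 to 57.3%) and its end in 178 (47.7%). In the 10960 stretches bounded by the start of one locus and the end of another, 100 of 212 peaks were closer to the start (47.2%, interval 40.6 to 53.9%), with a median distance of 3716 bp to the start (interval 2704 to 5145 bp) and 4025 bp to the end (interval 3019 to 5969 bp). The 200 bp excluded at starts removes some peaks on that side. Stretches between facing starts held 25.5% of the peaks (interval 21.3 to 30.1%) and 24.2% of the sequence between loci. Stretches between facing ends held 17.7% of the peaks (interval 14.2 to 21.9%) and 20.3% of the sequence. The median score was lower between facing ends, at 80.44 (interval 68.93 to 112.84), than between facing starts, at 125.2 (interval 104.98 to 180.02), or between a start and an end, at 141.82 (interval 114.82 to 169.55).

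Locus-free stretches that held these peaks were bounded by acetylated loci more often than other stretches. A locus was counted as acetylated when an H3K27ac peak touched its body or the 200 bp around its start. Of the 272 stretches with a peak outside loci, 173 had an acetylated locus on at least one side (63.6%, interval 57.7 to 69.1%), while the share over all stretches was 36.8% and that over the 18185 stretches without such a peak was 36.4% (interval 35.7 to 37.1%). Stretches with the peaks were also longer, with a median of 10815.5 bp against 1731 bp, so the comparison was repeated within classes of length. It was 78% against 37.2% for stretches of 2000 to 5000 bp, 67.1% against 27.9% for 5000 to 10000 bp, 63.8% against 21.3% for 10000 to 20000 bp and 58.3% against 13.0% for 20000 to 50000 bp. In the longest stretches, of 50000 bp or more, 9 of 25 with the peaks (36%, interval 20.2 to 55.5%) and 12.5% of the others had an acetylated neighbour. The contrast was thus present in each of these 5 classes of length, and the intervals of the paired shares did not meet in any of them. Of shorter stretches, only 6 held such a peak.

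**Figure D2:**
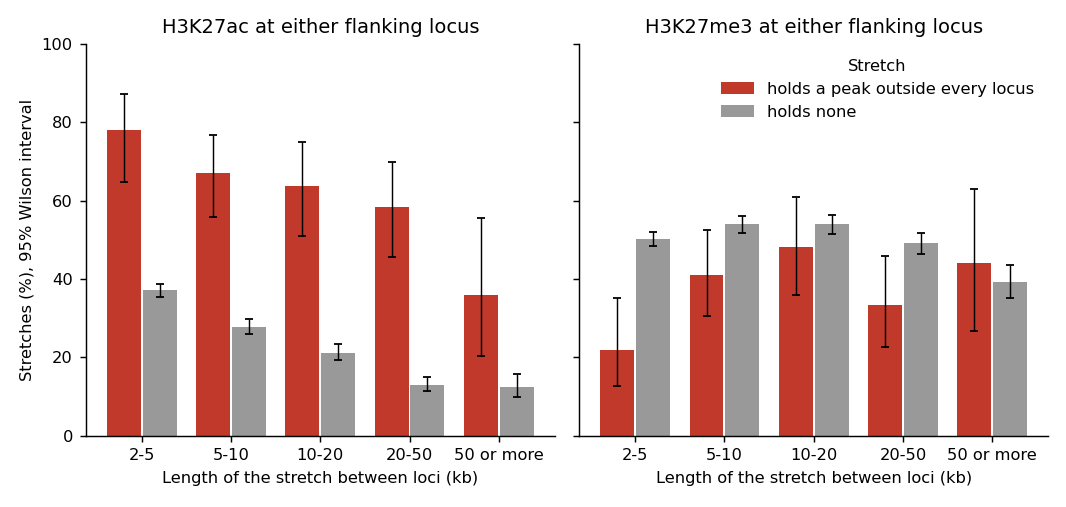
Share of locus-free stretches (percent, bars from 0, with 95% Wilson intervals) in which either flanking locus carries H3K27ac (left) or H3K27me3 (right), by length of the stretch in kb, for stretches that hold a peak outside every locus (red) and stretches that hold none (grey). For H3K27ac the red bars stand above the grey ones in each class of length, from 78% against 37.2% in the shortest class drawn to 36% against 12.5% in the longest.

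For H3K27me3 at the flanking loci the picture was different. A locus with H3K27me3 bounded 101 of the 272 stretches (37.1%, interval 31.6 to 43.0%), and the share over all stretches was 41.7%. The difference was widest in stretches of 2000 to 5000 bp, at 22% with the peaks (interval 12.8 to 35.2%) against 50.3% without (interval 48.6 to 52.0%), and in stretches of 50000 bp or more the shares were 44% (interval 26.7 to 62.9%) and 39.2% (interval 35.0 to 43.6%). Peaks in stretches bounded by H3K27ac alone numbered 182 and had a median score of 165.88 (interval 125.58 to 188.67). The 52 peaks in stretches bounded by H3K27me3 alone had a median score of 77.46 (interval 68.31 to 127.06), the 73 in stretches with both marks at the flanks 161.17 (interval 109.74 to 255.23), and the 66 peaks with neither mark at the flanks 84.72 (interval 71.4 to 107.74).

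The nearest annotated locus was likewise acetylated more often than annotated loci in general. It carried H3K27ac alone for 190 of the 373 peaks (50.9%, interval 45.9 to 56.0%), against 33.6% of the 12882 annotated loci, and H3K27me3 alone for 47 (12.6%, interval 9.61 to 16.4%), against 25.3%. Both marks were found for 28 peaks (7.51% against 4.25%) and neither for 108 (29.0% against 36.8%). Looking only at the nearest locus start of any kind, 155 peaks had H3K27ac within 200 bp of it (41.6%, interval 36.7 to 46.6%), against 21.3% of all 26854 locus starts. Over all H3K27ac peaks this share was 79.3%, a value that includes the peaks lying on starts themselves. The start nearest to 218 of the peaks therefore had no H3K27ac peak, and this was also the case for 6 of the 10 highest-scoring ones. When only peaks scoring 300 or more were kept, at starts as well as outside loci, 22.2% of the 90 peaks left outside loci had H3K27ac at the nearest start (interval 14.9 to 31.8%), against 11.8% of all locus starts at that threshold.

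In their spacing the peaks lay near the average of all H3K27ac peaks, which joins classes with unlike spacing. Another H3K27ac peak lay within 2000 bp of 203 peaks (54.4%, interval 49.3 to 59.4%), against 52.9% of all H3K27ac peaks. The share was 43.2% at annotated starts (interval 41.5 to 44.8%) and 64.9% elsewhere at annotated loci (interval 63.0 to 66.7%). At unannotated loci only, it was 57.2% (interval 52.3 to 61.9%). One lay within 500 bp of 127 (34.0%, interval 29.4 to 39.0%), against 29.9% of all other peaks. At annotated starts this was 21.2% (interval 19.8 to 22.6%) and elsewhere at annotated loci 40.2% (interval 38.3 to 42.1%). At unannotated loci only, it was 38.4% (interval 33.8 to 43.2%). At both ranges the peaks outside loci lay between peaks at annotated starts and peaks elsewhere at annotated loci. None lay within 10000 bp of 84 (22.5%, interval 18.6 to 27.0%), against 18.2% of all other peaks. The share was 21.9% at annotated starts, 12.4% elsewhere at annotated loci (interval 11.1 to 13.7%) and 24.3% at unannotated loci only. Peaks within 500 bp of each other were also joined into 1. The share with another peak within 2000 bp was then 30.8% of 273 (interval 25.6 to 36.5%), against 33.1% of all joined peaks. For 155 peaks the nearest other H3K27ac peak was itself outside every locus. The median score fell with the distance to the nearest other peak, from 169.55 (interval 137.93 to 200.13) under 500 bp and 160.1 (interval 110.59 to 255.23) at 500 to 2000 bp to 115.06 (interval 96.54 to 179.81) at 2000 to 10000 bp and 78.55 (interval 65.68 to 92) for the 84 peaks with none within 10000 bp. Of these 84 isolated peaks, 54 scored under 100, 17 lay on UNKN, and none scored above 948.54. They were also shorter, with a median length of 1241.5 bp (interval 1120 to 1425 bp).

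**Figure D3:**
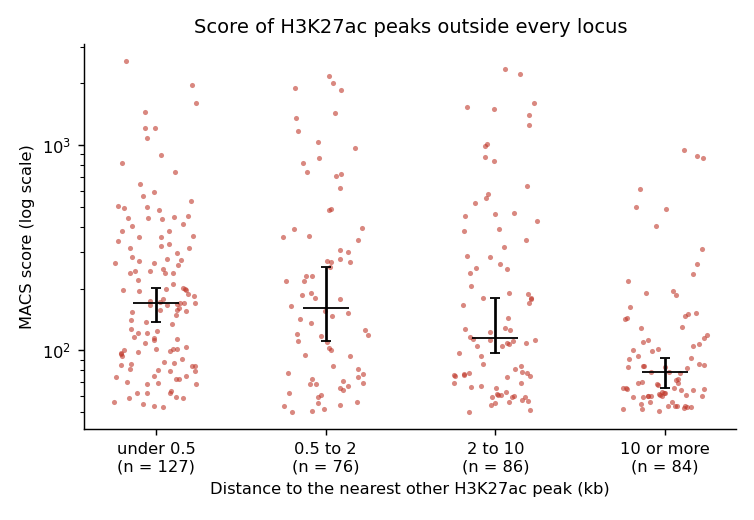
MACS score (vertical, log scale) of each of the 373 peaks outside every locus, grouped by the distance in kb to the nearest other H3K27ac peak, with black bars for the median and its 95% interval from order statistics. The medians go from 169.55 in the closest group to 78.55 in the most isolated group, where no peak scores above 948.54.

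Groups of several peaks in one stretch were few but held a sizeable part of the set. A single peak was found in 210 of the 272 stretches, and 20 stretches with 3 or more held 79 peaks. The fullest was a stretch of 43942 bp on 3L, from 21389922 to 21433863, between AGAP028166 and AGAP011340, whose start faces the stretch. It held 10 peaks, 65.7% of it was under H3K27ac, and no base was under H3K27me3. The peaks were 1311 to 5266 bp long. From the AGAP028166 side, their scores were 441.45, 170.8, 167.04, 867.5, 971.79, 817.81, 277.12, 1033.27, 238.97 and 1605.92, so the highest was that of the peak nearest to AGAP011340, at 21427213 to 21432478, which ended 1385 bp before that locus. Scores did not change steadily from one side to the other.

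**Figure D4:**
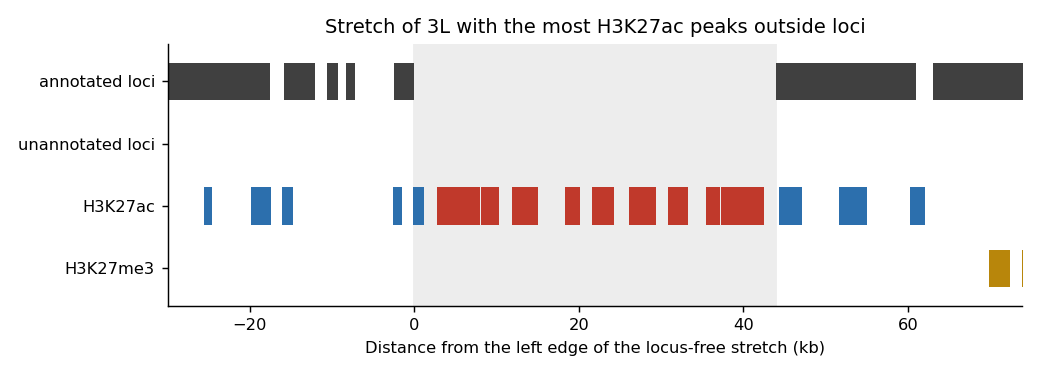
Map of the 43942 bp stretch of 3L (grey background) and 30 kb on each side, in kb from its left edge, with annotated loci, unannotated loci, H3K27ac peaks (red outside every locus, blue at loci) and H3K27me3 islands in separate rows. The 10 red peaks fill 65.7% of the stretch together with a blue peak at its left edge, peaks less than 200 bp apart look joined at this scale, and the nearest H3K27me3 lies outside the stretch on the right.

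The next fullest stretch, 62459 bp on 3L from 29157718 to 29220176, lay between unannotated loci and held 7 peaks. Of these, 4 sat side by side at 29162867 to 29174638 and scored 195.8, 493.22, 272.25 and 1206.64, and the other 3 scored 66.83, 155.48 and 102.05. A stretch of 23166 bp on X, from 11537334 to 11560499 and also between unannotated loci, held 5 peaks and was 68.0% acetylated. The scores there were 157.91, 1959.49, 323.02, 1425.13 and 94.09, and the second of these peaks, 5549 bp at 11541389 to 11546937, is among the 10 highest of the set. Another 5 peaks lay between the facing starts of AGAP002615 and AGAP002616 on 2R, in a stretch of 27350 bp that was 48.0% acetylated. None of these 3 stretches held H3K27me3.

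The 10 highest-scoring peaks were spread over 2R with 4, X with 3, and 2L, 3L and 3R with 1 each. The highest score, 2551.28, belonged to a peak of 8314 bp on 2R at 54992918 to 55001231, between the facing starts of AGAP004353 and AGAP004354. It ended 683 bp from AGAP004354, and 27 bp beyond it lay a peak with the lowest score of the whole list, 50.02, which touched that start. A further 3 peaks of the same stretch scored 1087.59, 74.95 and 83.75, and 77.2% of the stretch was acetylated. The highest score outside loci and the lowest at a start were thus those of neighbouring peaks.

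A pair of the 10 highest lay close together and far from annotated genes on one side. These were peaks on 2R of 6292 bp at 37078968 to 37085259, with a score of 2339.52, and of 5124 bp at 37066843 to 37071966, with a score of 1891.48. They were 7001 bp apart in a stretch of 62838 bp, and the nearest locus, AGAP003373, was 7371 bp from the first and 20664 bp from the second. On the other side the nearest annotated locus, which holds AGAP012987 and AGAP013095, lay 92776 bp from the first. The start nearest to either peak had no H3K27ac. The other peak of this stretch, next to the second, scored 118.93, and 12.7% of the stretch was under H3K27me3, the closest island being 3292 bp from that peak.

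The remaining high scores were found nearer to loci. A peak on X at 2836696 to 2841478 scored 2218.89 and lay between AGAP000162, at 319 bp, and AGAP000163, at 2517 bp. A peak on 2R at 48436736 to 48439740 scored 2175.95 and lay 1559 bp from an unannotated locus, as did a peak on 2L at 18113690 to 18117926, which scored 2015.67, at 1459 bp. A peak of 4158 bp on 3R at 42633333 to 42637490 scored 1861.66 and filled most of the 4767 bp next to AGAP009767, 104 bp away. The last of these, on X at 8180189 to 8185288 with a score of 1608.02, lay between facing ends, 2957 bp from AGAP000473, and was the only one of the 10 to share bases with H3K27me3, 211 bp. The other 9 were 7643 bp or more from any H3K27me3 island.

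Length and score picked partly different peaks. The longest, 18099 bp on 3L at 41637871 to 41655969, scored 520.05, and its nearest H3K27me3 island was 2031 bp away. An unannotated locus lay 2014 bp from this peak, and the nearest annotated loci were AGAP012389, at 7578 bp, and AGAP012390, at 37552 bp. The second, 8818 bp on 2R at 1486947 to 1495764, ended 835 bp before AGAP001203, scored 1250.89 and shared 1253 bp with H3K27me3. The third was the 8314 bp peak beside AGAP004354. A peak of 7855 bp on 2R at 21730978 to 21738832, 556 bp from AGAP002461, scored 646.01, and one of 6364 bp on 3R at 3455499 to 3461862 scored 833.37 and shared 301 bp with H3K27me3.

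H3K27me3 lay near these peaks more often than near other H3K27ac peaks. An H3K27me3 island, as called by SICER in windows of 200 bp, was within 2000 bp of 85 peaks (22.8%, interval 18.8 to 27.3%), against 11.4% of all H3K27ac peaks. It was 16.2% of the 667 peaks left when unspliced unannotated loci were not counted (interval 13.6 to 19.2%). By class, the share was 13.9% (interval 12.7 to 15.1%) at annotated starts, 6.79% (interval 5.87 to 7.84%) elsewhere at annotated loci and 9.16% (interval 6.72 to 12.4%) at unannotated loci. The peaks outside loci also lay between islands on both sides more often, with an island within 10000 bp on each side of 55 (14.7%, interval 11.5 to 18.7%), against 8.94% (interval 8.02 to 9.96%) of the peaks at annotated starts. At longer range the peaks outside loci were close to peaks at annotated starts, but not to the other classes. No H3K27me3 lay within 10000 bp of 196 of the 373 (52.5%, interval 47.5 to 57.6%). The share was 53.8% at annotated starts (interval 52.1 to 55.5%) and 61.7% over all other H3K27ac peaks (interval 60.5 to 62.9%). It was 71.6% elsewhere at annotated loci (interval 69.8 to 73.3%) and 66.1% at unannotated loci (interval 61.3 to 70.5%). For a further 92 of the 373 the nearest island was 2000 to 10000 bp away.

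**Figure D5:**
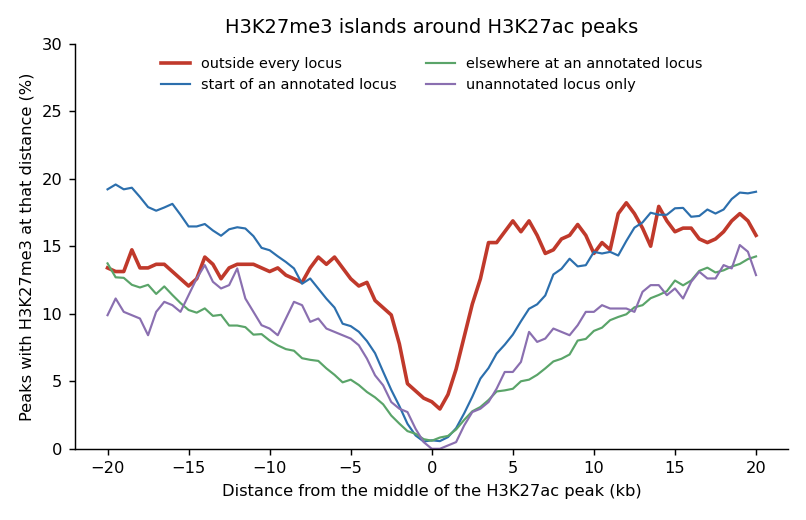
Share of H3K27ac peaks (percent) with H3K27me3 at each distance in kb from the middle of the peak, in steps of 0.5 kb along the chromosome, for peaks outside every locus (red, 373) and the 3 classes of peaks at loci. All lines dip at the middle, where the red line stands at 3.49% and the others at 0.628% or less, and the red line regains over 10% nearer to the middle than the others.

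The contrast in H3K27me3 was clearest among low-scoring peaks. For scores under 100, H3K27me3 lay within 2000 bp of 43 of 150 peaks outside loci (28.7%, interval 22.0 to 36.4%), of 13.1% of the peaks at annotated starts (interval 10.5 to 16.2%) and of 7.85% of those elsewhere at annotated loci (interval 6.1 to 10.1%). For scores of 300 or more it was 15 of 90 (16.7%, interval 10.4 to 25.7%), 14.1% (interval 12.5 to 15.8%) and 5.78% (interval 4.48 to 7.43%). Against peaks at starts, the contrast was therefore not visible among high-scoring peaks, whose interval is wide. Isolated peaks had H3K27me3 within 2000 bp in 26 of 84 cases (31.0%, interval 22.1 to 41.5%), and peaks with another H3K27ac peak within 500 bp in 20 of 127 (15.7%, interval 10.4 to 23.1%).

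Bases under both marks were found in 29 of the 373 peaks (7.77%, interval 5.47 to 10.9%), against 2.32% of all H3K27ac peaks. These 29 held 23059 bp under H3K27me3, or 3.22% of the sequence of the 373 peaks, while the share was 0.679% for peaks at annotated starts and 0.587% elsewhere at annotated loci. At least 50% of the peak lay under H3K27me3 in 13 of them, and 2 lay wholly inside an island. X held 9 of the 29, among its 38 peaks outside loci, and 3R held 7, among its 68. Their median score was 77.34 (interval 56.81 to 152.88), against 125.78 (interval 105.01 to 157.91) for the 196 peaks with no H3K27me3 within 10000 bp. Each of the 29 touched a single island, and the island was 10000 bp or longer for 3 of them.

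The largest overlaps were in modest peaks inside islands of a few kilobases. A peak of 1890 bp on 3L at 29725368 to 29727257, between AGAP011611 and AGAP011612 and 24021 bp from the first, lay wholly inside an island of 5199 bp and scored 128.71. On 3R, a peak at 37580928 to 37583086 shared 1886 bp (87.4% of it) with an island of 3399 bp, and another at 37517496 to 37519348, between AGAP009645 and AGAP009646, shared 1704 bp (92.0%) with an island of the same length. Their scores were 130.51 and 86.07. A peak of 4905 bp on X at 18113676 to 18118580, 1465 bp from AGAP000939, scored higher, 873.92, and shared 1524 bp (31.1%). The last, on 3L at 28533484 to 28534972, was wholly inside an island of 7399 bp and had the lowest score of the 373, 50.22. Pooled midguts cannot tell histones with both marks in one cell from cells with either mark, and the peaks and islands were called by different programs.

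Among candidate genes for immunity and insecticide resistance listed by the study, few had one of these peaks as a neighbour. All 66 were found in the transcript set, and 5 of them (7.58%) were the nearest annotated gene on one side of a peak, against 3.75% of the 13102 annotated genes. The 5 were all among the 60 immunity genes and belong to 4 peaks, because AGAP012210 and AGAP012211 are both entries of EcR. With so few genes the share is imprecise, and its difference from that of all annotated genes was not tested. REL2 (AGAP006747), the NF-kappaB factor of the IMD pathway, is a minus-strand locus of 2L at 37732380 to 37744830, and the locus was acetylated. A peak of 980 bp with a score of 178.22, at 37745063 to 37746042, began 232 bp beyond its start, and another H3K27ac peak lay 236 bp away. REL1 (AGAP009515), the NF-kappaB factor of the Toll pathway, is likewise an acetylated minus-strand locus, at 35054425 to 35081128 of 3R. A peak of 1075 bp at 35081776 to 35082850 lay 647 bp upstream of its locus and scored 81.16, with an H3K27me3 island 950 bp away.

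The ecdysone receptor gene EcR, which responds to the steroid hormone of moulting and egg production, is listed under AGAP012210 and AGAP012211. These entries and AGAP012209 were assembled into 1 locus on 3L from 38724696 to 38912879. This joint locus carried both marks, which were not assigned to the single genes. Beyond its end lay a peak of 2023 bp with a score of 444.96, at 38920557 to 38922579. The peak was 7677 bp from this joint locus but 251 bp from the nearest locus, and 10 bp from another H3K27ac peak. PPO5 (AGAP012616), a prophenoloxidase of the melanization response, was the nearest annotated gene to one side of a peak on UNKN, from 443946 bp away. None of the 6 insecticide resistance genes had such a peak as a neighbour. Distance does not show which gene a distal element acts on, and this was not tested.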

How the data were processed

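Per the study's methods and the labels, the authors mapped ChIP reads with Bowtie 1.0.0 to AgamP4, filtered repetitive reads, and called H3K27ac peaks with MACS 1.4 and H3K27me3 islands with SICER, both against input. The deposited lists give positions and a score for each peak or island. The 2 scores are on different scales and were compared only within the H3K27ac list. The authors assembled RNA reads with TopHat2 2.0.10 and Cufflinks 2.1.1 and deposited 1 merged transcript set of 26835 loci on 6 chromosome sequences, with no abundance. The filter on repetitive reads and the peak caller limit what can be called in repeats, such as UNKN.

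Lengths were counted from the listed positions, and distances ran from edge to edge. Loci with a transcript of class "=", "j" or "o" were called annotated (12882 loci). Both ends counted as starts in the 19 loci without strand. Regions named were the 10 highest-scoring, 5 longest and 5 most distant peaks, the 5 with most bases under H3K27me3, and the stretch with the most peaks. Other named regions were chosen after their values were seen. Members and lists were chosen with earlier results of these data known. Genes were named only where the study's candidate list names them. Computation was in Python 3.11.15 (scipy 1.17.1, pandas 2.3.3, numpy 2.4.6), plots were drawn with matplotlib 3.10.9, and the interval functions were tested on simulated data. Alternatives were 8 planned changes of rule or threshold and 1 added later. Sequence features, read depth and the input library were not analysed here.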

Additional observations from a re-analysis of the deposited data

How the results depend on the processing

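Of 63 recomputed values, 45 stayed within 1.5 times the main count or inside the interval of the main value, and 18 did not. The values are counts, medians and shares of these peaks alone, so they do not show whether a contrast with other peaks held. Every value stayed so with an excluded zone of 0 bp at starts, starts of every transcript, an overlap of at least 10%, and without UNKN. Starts of every transcript could hardly change the set of 373 peaks, because each transcript lies inside a locus that the rule already leaves out. With a zone of 1000 bp the median distance to the nearest locus was 3278.5 bp. When unspliced unannotated loci were ignored, 667 peaks lay outside loci, with a median score of 157.01, a median length of 1635 bp, a median distance of 3889 bp and H3K27me3 within 2000 bp of 16.2%. With peaks scoring 100 or more, 223 peaks were left, with a median score of 242.9 and a median length of 1967 bp. With peaks within 500 bp joined, 30.04% had H3K27ac at the nearest start, and the share over all starts after joining was not computed. Another H3K27ac peak lay within 2000 bp of 30.8%, against 33.1% of all joined peaks. A threshold of 300, chosen after seeing the data, left 90 peaks. Their median score was 558.67, their median length 2881.5 bp and their median distance 1585.5 bp. H3K27ac lay at 22.2% of the nearest starts, against 11.8% of all locus starts at that threshold. H3K27me3 lay within 2000 bp of 16.7%. Another peak lay within 2000 bp of 42.2%, and the share over all H3K27ac peaks at that threshold was not computed. The score thresholds raise the median score by their construction and also remove the peaks at starts and neighbours that score below them. Joining leaves no neighbour within 500 bp, and a peak joined to one at a locus leaves the set. The shares given after joining can therefore fall by construction. The cause of the other shifts was not tested. No paired analysis was possible because each mark has 1 library and the labels carry no replicate numbers.

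The number of peaks outside loci rests on the assembly, which joins 2 RNA libraries, and on the score threshold, since 150 of the 373 peaks score under 100. The spread between animals is not known.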
